A study of Mus musculus with 19 samples.

Results

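The genes described here are H2-Aa, H2-Ab1, H2-Eb1, H2-DMa, H2-DMb1, Cd74 and Ciita, the machinery of antigen presentation by major histocompatibility complex (MHC) class II and its master activator. They were taken by symbol from the count table and are 7 of its 25124 genes, and all 7 passed the filter on low counts. The RNA of 6 of the 7 was far higher in adult marrow stem and progenitor cells than in the same cell types of the fetal liver. These 6 passed the test in both cell types, beside 4.95% of all genes tested in stem cells and 15.4% in progenitors, in either direction. Ciita had a higher mean in adult cells of both types, but with all libraries neither difference passed the test.

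MHC class II molecules display peptides from engulfed or internal proteins to CD4 T cells. H2-Aa and H2-Ab1 encode the alpha and beta chains of the I-A dimer, and H2-Eb1 encodes the beta chain of I-E. C57BL/6 mice carry a haplotype in which the alpha chain gene of I-E is not transcribed, so that no I-E reaches their cell surface. Cd74 encodes the invariant chain, which fills the peptide groove of new dimers and guides them to endosomes, and H2-DMa and H2-DMb1 encode the DM dimer, which swaps the remnant of the invariant chain for peptide. Ciita encodes the coactivator that switches this set on. It does not bind DNA itself but docks on factors at the X and Y boxes of class II promoters, the RFX complex, CREB family proteins and NF-Y, the last of which binds CCAAT. Dendritic cells, B cells and macrophages are the classical class II cells, and class II has also been described on human blood progenitors.

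The cells came from C57BL/6 mice, as liver of E14.5 embryos or bone marrow at 12 weeks of age. Hematopoietic stem cells (HSC) were sorted as cKit+ Sca1+ CD150+ and negative for CD48 and Flt3, and lymphoid-primed multipotent progenitors (LMPP), the Flt3-bearing stage that leads to lymphocytes and myeloid cells, as cKit+ Sca1+ CD48+ Flt3+ and negative for CD150. All gates excluded cells with CD3, Gr1, ter119 or the B cell antigen B220, and the adult gates also excluded CD11b. Fetal and adult groups thus differ in age, organ and the CD11b gate at once, and these cannot be told apart here. A difference between ages below means this joint difference. Each group had 3 RNA-seq libraries except fetal HSC, which had 2, and each had 2 libraries for open chromatin (ATAC-seq, in which a transposase cuts accessible DNA). The design text calls the replicates biological without tying them to separate animals, and the p-values below reflect no more than the spread among these libraries.

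The libraries held 19.8 to 64.8 M counts each, and a gene with no count could still reach 3 counts, or 0.0498 to 0.152 CPM depending on the library. CPM are counts relative to the TMM-scaled size of each library. The summed level of 7 HSC markers, among them Procr, Mecom and Slamf1, was 1250 to 1600 CPM in HSC libraries and 145 to 423 CPM in LMPP libraries. That of 7 LMPP markers, among them Flt3, Cd48 and Il7r, was 59.3 to 162 CPM in HSC and 1240 to 4020 CPM in LMPP, with Dntt at 0 in all fetal LMPP libraries. The third principal component of log2 CPM (10.4% of the variance) set 1 library apart in each of 3 groups, namely adult LMPP 3 (−24.5), fetal LMPP 1 (−57.5) and adult HSC 3 (−89.1), and results on the 7 genes whose call changes without these 3 libraries are given both ways.

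The promoters of 4 of the 7 genes were at hand (RefSeq, GRCm38.p6, 250 bases before to 50 after a start), and stretches of 3 of them, with those of the related genes H2-Oa and H2-Ob, are printed because they show the spaced pair of boxes through which Ciita is known to act. Capitals mark GNAAC, a run of letters chosen after these promoters had been read, and ATTGG, the reverse complement of CCAAT, 20 to 45 bases further on. Each stretch is given 5′ to 3′ on the strand of its gene.
H2-Aa, chr17:34287857-34287924, minus strand: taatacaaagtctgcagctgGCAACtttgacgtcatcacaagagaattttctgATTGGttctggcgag
H2-Eb1, chr17:34305756-34305822, plus strand: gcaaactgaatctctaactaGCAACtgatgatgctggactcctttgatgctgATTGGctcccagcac
H2-DMb1, chr17:34153077-34153144, plus strand: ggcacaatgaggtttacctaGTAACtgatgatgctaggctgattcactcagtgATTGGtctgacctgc
H2-Oa, chr17:34092283-34092350, plus strand: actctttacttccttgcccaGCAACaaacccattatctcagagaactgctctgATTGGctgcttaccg
H2-Ob, chr17:34238798-34238862, plus strand: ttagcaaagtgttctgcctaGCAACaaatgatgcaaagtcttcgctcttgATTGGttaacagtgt
In these 5 promoters the pair starts 30 to 33 bases apart and ATTGG begins 43 to 61 bases before the start of the gene. GNAAC followed by ATTGG at 20 to 45 bases, read on both strands, occurred in 4.25% of 32544 mouse promoters of the same length. CCAAT on either strand occurred in 37.4% of them and in the promoters of H2-Aa, H2-Eb1, H2-DMb1 and, at the start used by the table, H2-DMa. A stricter X box core, CCNAGNNAC, occurred in 17.3% and was found in H2-Aa and H2-DMb1. The pair of CCNAGNNAC and ATTGG at the same spacing occurred in 0.424% of promoters and was found in H2-DMb1, H2-Oa and H2-Ob. For H2-DMa neither pair lay in the windows at its 2 RefSeq starts. Of the other relatives, H2-DMb2 held neither pair. H2-Eb2, which is not printed, held the pair of GNAAC and ATTGG 32 bases apart. Its ATTGG lay further out than in the printed promoters, 100 bases before the start. These matches describe letters in a window and not bound sites.

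Among the peptide-presenting chains, H2-Aa (chromosome 17, 34282744 to 34287823, minus strand, mm10) was almost silent in fetal HSC and abundant in adult HSC. Its level was 44.9, 67.4 and 110 CPM in adult HSC 1 to 3 and 0.118 and 0.317 CPM in fetal HSC 1 and 2, where the values rest on 3 and 13 counts. In LMPP it was 34.8, 36 and 86.3 CPM in adult libraries and 0.995, 0.185 and 3.17 CPM in fetal libraries. Adult and fetal libraries did not overlap in either cell type, and the fetal LMPP libraries differed widely among themselves. The mean was 341-fold higher in adult than in fetal HSC (log2 difference, fetal minus adult, −8.30 ± 1.19 SE, adjusted p = 0.00259 by edgeR) and 36.2-fold higher in adult than in fetal LMPP (−5.22 ± 0.83, adjusted p = 0.00242). In sorted bulk samples such as these, fewer cells that express a gene and less RNA per cell cannot be told apart.

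H2-Ab1 (chromosome 17, 34263227 to 34269418, plus strand), the partner chain, had the highest fetal level per kilobase of exon among the 3 presenting chains, a mean of 0.937 CPM per kb in HSC and 5.18 in LMPP. It stood at 71.8, 91.7 and 177 CPM in adult HSC, 1.16 and 1.06 CPM in fetal HSC, 131, 128 and 288 CPM in adult LMPP and 6.49, 4.71 and 7.22 CPM in fetal LMPP. The 4 groups of libraries were separate except that adult HSC and adult LMPP overlapped. The fetal minus adult log2 difference was −6.66 ± 0.61 in HSC (102-fold between means, adjusted p = 0.000198) and −4.89 ± 0.45 in LMPP (29.7-fold, adjusted p = 0.000112).

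H2-Eb1 (chromosome 17, 34305867 to 34316674, plus strand), the beta chain that lacks its partner in this strain, was likewise higher in all adult than in all fetal libraries. It was at 17.7, 34.1 and 36.3 CPM in adult HSC and 21.4, 20.7 and 39.1 CPM in adult LMPP. Fetal HSC had 0.197 and 0.219 CPM (5 and 9 counts), and fetal LMPP had 0.0355, 0.0369 and 0.807 CPM (2, 1 and 19 counts), so that nearly all the fetal LMPP signal came from library 3. The fetal minus adult log2 difference was −7.11 ± 1.13 in HSC (adjusted p = 0.0048) and −6.74 ± 0.93 in LMPP (adjusted p = 0.00114). The call in HSC was lost without fetal HSC 1 (adjusted p = 0.0757) or fetal HSC 2 (0.091), fits in which the lone fetal library is assumed to vary like the other groups. In LMPP, leaving out fetal LMPP 3 moved the difference to −9.42.

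Cd74 (chromosome 18, 60803849 to 60812652, plus strand), the invariant chain, was the highest of the 7 per kilobase of exon in adult HSC, at a mean of 142 CPM per kb. Its level was 113, 198 and 289 CPM in adult HSC, 1.99 and 2 CPM in fetal HSC, 115, 96.6 and 243 CPM in adult LMPP and 8.06, 4.38 and 18.8 CPM in fetal LMPP. All adult libraries lay above all fetal libraries, and all fetal LMPP libraries lay above both fetal HSC libraries. The adult mean was 100-fold the fetal mean in HSC (log2 −6.65 ± 0.81, adjusted p = 0.00102) and also higher in LMPP (−3.87 ± 0.59, adjusted p = 0.00192).

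The peptide exchange genes were lower in fetal cells but kept a clear fetal level. H2-DMa (chromosome 17, 34125518 to 34139101, plus strand) was at 122, 126 and 177 CPM in adult HSC, 14.3 and 17.5 CPM in fetal HSC, 276, 258 and 412 CPM in adult LMPP and 57.4, 53.1 and 67.8 CPM in fetal LMPP. No 2 of the 4 groups overlapped. The fetal minus adult log2 difference was −3.16 ± 0.28 in HSC (8.94-fold, adjusted p = 0.000172) and −2.41 ± 0.23 in LMPP (5.3-fold, adjusted p = 0.000135).

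H2-DMb1 (chromosome 17, 34153191 to 34160229, plus strand), the other chain of the exchange dimer, split the libraries by age and not by cell type. It was at 66.4, 78.4 and 121 CPM in adult HSC, 60.3, 62.3 and 86.3 CPM in adult LMPP, 7 and 11 CPM in fetal HSC and 8.71, 7.7 and 6.91 CPM in fetal LMPP. The log2 difference was −3.29 ± 0.35 in HSC (adjusted p = 0.000457) and −3.16 ± 0.29 in LMPP (adjusted p = 0.000109). H2-DMb2, a near-identical neighbour, may share reads with it, so the level of each is uncertain.

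Ciita (chromosome 16, 10488178 to 10527640, plus strand), the activator, was the least abundant of the 7 per kilobase of exon in each group, at means of 0.0953 to 0.907 CPM per kb, and was uneven among libraries. It was at 5.59, 7.94 and 0.913 CPM in adult HSC, 0.629 and 0.512 CPM in fetal HSC, 3.74, 3.56 and 0.753 CPM in adult LMPP and 0, 0.222 and 1.3 CPM in fetal LMPP. The HSC groups did not overlap, by a narrow gap, and in LMPP 1 fetal library lay above 1 adult library. The adult mean was 8.44-fold the fetal mean in HSC (log2 −3.07 ± 1.52, adjusted p = 0.32) and 5.3-fold in LMPP (−2.49 ± 1.28, adjusted p = 0.224), and neither difference passed the test. Without the 3 libraries that stood apart both did, at −3.58 in HSC (adjusted p = 0.0114) and −2.31 in LMPP (adjusted p = 0.0349). In HSC leaving out 1 library alone gave no call, with adjusted p from 0.173 to 0.753.

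**Figure D1:**
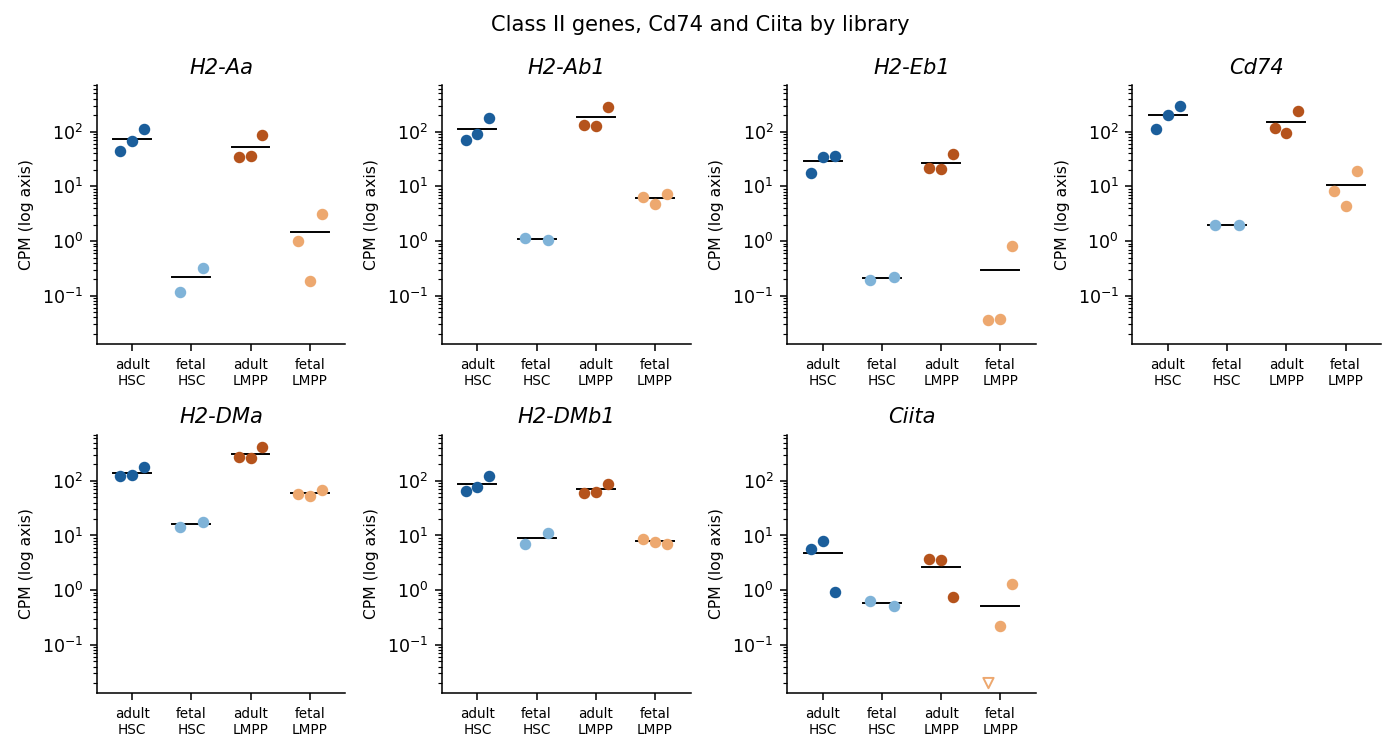
Level of the 7 genes in each of the 11 RNA-seq libraries, in CPM on a log axis. Points are libraries in order of their number, black lines are group means, and the open triangle marks fetal LMPP 1, which had 0 Ciita counts. Adult points lie above fetal points of the same cell type for every gene except Ciita in LMPP.

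In adult HSC 3 and adult LMPP 3 the activator was low and the other 6 genes were high. Adult HSC 3, adult LMPP 3 and fetal LMPP 1, the libraries that stood apart, each held the lowest Ciita level of their group, 0.913, 0.753 and 0 CPM. Adult HSC 3 and adult LMPP 3 held the highest level of their group for each of the other 6 genes, whereas fetal LMPP 1 did so only for H2-DMb1 and had the lowest H2-Eb1 of its group. Rfx5, a subunit of the RFX complex, was also at its group's lowest in the same 3 libraries, at 30.7, 16.6 and 17.6 CPM. The exons of Ciita and Rfx5 are long in the table, 5309 bases for Ciita against 1121 for H2-Aa. The part of library quality in these values was not tested.

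Counted together, 6 of the 7 genes were called lower in fetal HSC, where 2.89% of the 14720 genes tested were called lower, 2.07% higher and 4.95% in either direction. The same 6 were called lower in fetal LMPP, where 8.29% of genes were called lower, 7.08% higher and 15.4% in either direction. The median difference over the 7 was −6.65 in HSC and −3.87 in LMPP, beside a median of 0 over all genes in both comparisons. Adult and fetal libraries did not overlap for 7 of the 7 in HSC and 6 of the 7 in LMPP, against 41.1% and 34.7% of all genes. The HSC and LMPP comparisons share no library, but they are not shown to be independent repeats. Same-numbered adult HSC and adult LMPP libraries may be pairs, and all libraries were fitted together.

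**Figure D2:**
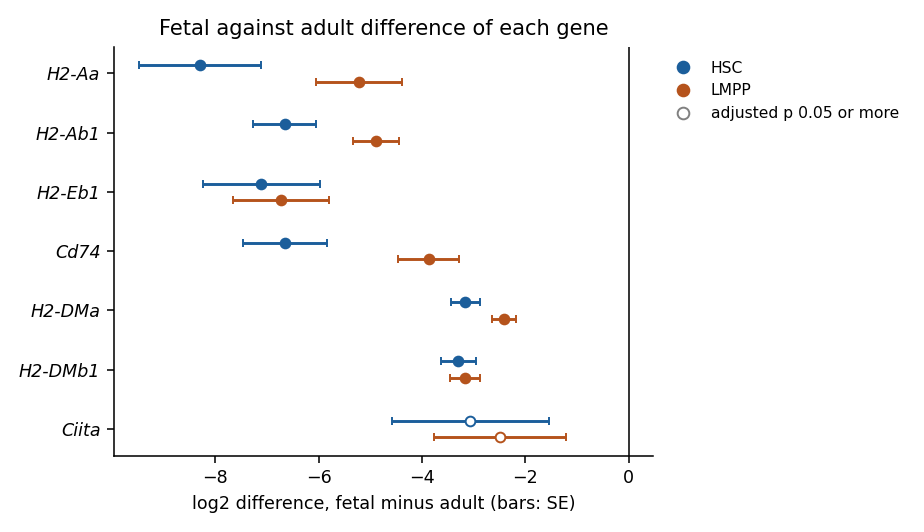
Fetal minus adult log2 difference of each gene in HSC and LMPP, with bars of 1 standard error from edgeR. Filled points have an adjusted p under 0.05. All 14 points lie below 0, from −8.30 for H2-Aa in HSC to −2.41 for H2-DMa in LMPP, and the 2 open points are those of Ciita.

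The fitted age difference was larger in HSC than in LMPP for each of the 7 genes, but no gene passed the test of that contrast. The fetal minus adult difference in LMPP, less that in HSC, was 3.08 ± 1.25 on the log2 scale for H2-Aa (adjusted p = 0.329), 2.78 ± 0.84 for Cd74 (0.188), 1.77 ± 0.63 for H2-Ab1 (0.26) and 0.75 ± 0.33 for H2-DMa (0.372). For H2-Eb1, H2-DMb1 and Ciita it was 0.37, 0.13 and 0.58. By edgeR 0 of the 7 were called, 4 had an unadjusted p under 0.05, and 0.931% of all genes were called (0.387% higher, 0.543% lower). DESeq2 called Cd74 (adjusted p = 0.0157), and H2-Ab1 passed without the 3 libraries that stood apart (1.74, adjusted p = 0.0196).

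Within the fetal liver, class II RNA was higher in LMPP than in HSC for 3 of the 7 genes. H2-DMa was 3.75-fold higher in LMPP by means (log2 1.90 ± 0.26, adjusted p = 0.00143), H2-Ab1 5.53-fold (2.45 ± 0.51, adjusted p = 0.0101) and Cd74 5.23-fold (2.38 ± 0.67, adjusted p = 0.0348). In this comparison 8.21% of all genes were called higher and 9.85% lower, and the libraries of 3 of the 7 genes did not overlap, against 60.9% of all genes. H2-Aa had 1.45 ± 1.54 CPM in fetal LMPP (SD, n = 3) and 0.217 ± 0.141 CPM in fetal HSC (n = 2), and its difference of 2.58 ± 1.05 missed the threshold (adjusted p = 0.114) except with DESeq2 (0.0148) and without fetal LMPP 2 (0.0458). Differences were 0.25 ± 1.11 for H2-Eb1, −0.22 ± 0.30 for H2-DMb1 and −0.26 ± 1.40 for Ciita. The call of H2-Ab1 was lost without fetal HSC 1 (adjusted p = 0.0687) or 2 (0.107), and that of Cd74 without either of those (0.167 and 0.209), without fetal LMPP 1 (0.05) or without fetal LMPP 3 (0.0824).

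Within adult marrow only H2-DMa passed the test, at 315 ± 84.2 CPM in LMPP and 142 ± 30.8 CPM in HSC (SD, n = 3 each, log2 1.15 ± 0.22, adjusted p = 0.00519). Of all genes 7.76% were called higher and 9.33% lower in adult LMPP than in adult HSC. The libraries of 1 of the 7 genes did not overlap, against 31.8% of all genes. The log2 differences of the other genes were 0.68 ± 0.38 for H2-Ab1, −0.50 ± 0.68 for H2-Aa, −0.12 ± 0.68 for H2-Eb1, −0.35 ± 0.27 for H2-DMb1, −0.40 ± 0.52 for Cd74 and −0.84 ± 1.18 for Ciita. H2-Ab1 passed without adult HSC 3 (1.16, adjusted p = 0.0429) and without the 3 libraries that stood apart (0.66, adjusted p = 0.0281). Same-numbered adult libraries may be pairs, which their deviations do not settle. A fit with the replicate block also called H2-DMa alone (1.15 ± 0.14, adjusted p = 0.00125), with H2-Ab1 at 0.68 ± 0.22 (adjusted p = 0.0697). Within the 3 same-numbered sets H2-DMa and H2-Ab1 were higher in LMPP in 3 of 3, and H2-Aa, H2-DMb1 and Ciita lower in 3 of 3.

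The balance of the genes within a library differed between the adult cell types. Per kilobase of exon, Cd74 was 2.01 to 2.34 times H2-Aa in the adult HSC libraries and 2.14 to 2.63 times in the adult LMPP libraries. H2-Ab1, by contrast, was 1.29 to 1.52 times its partner H2-Aa in adult HSC and 3.16 to 3.56 times in adult LMPP. H2-DMa was 0.879 to 1.49 times H2-Aa in adult HSC and 2.61 to 4.34 times in adult LMPP, and H2-Eb1 stayed at 0.222 to 0.416 times in all 6. The 2 ranges did not overlap for H2-Ab1 or H2-DMa. In fetal libraries the ratios were scattered, with H2-Ab1 at 2.16 to 24.1 times and Cd74 at 4.74 to 18.9 times H2-Aa, which had 3 to 74.5 counts there.

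Across all 11 libraries the levels of the 6 genes other than Ciita were correlated with one another at Pearson r of 0.82 to 0.991, and each of them with Ciita at 0.454 to 0.771. These are descriptions, since the libraries fall into adult and fetal sets. The genes whose log2 CPM was most like the mean of the 7 over the 11 libraries were Car3, a carbonic anhydrase (r 0.988, Spearman rho 0.845), Mir5107 (0.985, 0.964), Apol7e and Apol7b, apolipoprotein L genes (0.975 and 0.971), Dkkl1 (0.974), Cux1, a homeodomain factor (0.969), Padi4, which converts arginine to citrulline in proteins (0.969), and Macrod1, an ADP-ribose hydrolase (0.969). Mir5107 lies inside the annotated span of Cd74 and cannot be separated from its reads. Apol7e was at 23.3 ± 2.92 CPM in adult HSC, 1.22 ± 0.384 in fetal HSC, 19.3 ± 1.05 in adult LMPP and 0.963 ± 0.656 in fetal LMPP. Padi4 was at 63 ± 16.6, 8.16 ± 1.76, 68.4 ± 7.8 and 6.99 ± 1.72 CPM in the same order. For comparison, the r of the 7 genes to their own mean was 0.722 for Ciita and 0.903 to 0.985 for the other 6.

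Chromatin was described by 1 list of reproducible ATAC-seq peaks per group, with 53068 peaks for adult HSC, 48286 for fetal HSC, 50579 for adult LMPP and 37156 for fetal LMPP. The signal value is the authors' fold enrichment, used here as the rank of a summit among all summit lines of its own list, so that 100% is the strongest summit. The lists hold 95316, 87434, 88853 and 68162 such lines in the same order. A peak with several summits is given by its strongest summit, so these are not ranks among merged peaks. With 1 list per group there is no spread and no test. A region that is not listed is not shown to be closed, the more so in the shorter fetal LMPP list.

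A peak within 1 kb of the annotated start was listed for 5 of the 7 genes in adult HSC, 6 in adult LMPP, 3 in fetal HSC and 2 in fetal LMPP. The same held for 55.9%, 53.1%, 55.0% and 50.1% of all genes of the table, in the same order. Within 10 kb of the start the counts were 7, 7, 6 and 5 of 7, beside 70.4%, 67.9%, 69.7% and 63.8% of all genes. With 7 genes and 1 list per group, nothing is read from the distance between these counts and shares.

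The start sites of the I-A genes were listed in every group, fetal cells included. For H2-Aa the summit lay 88 to 113 bases before the start (region chr17:34287565-34288149), at the 84.5% rank in adult HSC, 87.5% in fetal HSC, 57.7% in adult LMPP and 68.8% in fetal LMPP. The promoter stretch with GCAAC and ATTGG printed above lies within this region. For H2-Ab1 the summit lay 56 to 65 bases before the start (chr17:34263030-34263652), at the 84.3%, 82.3%, 71.1% and 59.6% ranks in the same order. A second region of H2-Ab1 near 5.4 kb upstream (chr17:34257551-34258056) was also in all 4 lists. Peaks were thus listed at these starts in fetal HSC, where the RNA of H2-Aa was 0.217 ± 0.141 CPM (SD, n = 2).

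The starts of the other genes were listed mainly in adult cells. The start of H2-Eb1 (chr17:34305581-34306133) ranked at 91.4% in adult HSC, 76.2% in adult LMPP and 54.8% in fetal HSC, and was not listed in fetal LMPP. A further region about 0.9 kb upstream of it (chr17:34304791-34305167) was in the 2 adult lists only. The start of H2-DMb1 (chr17:34152755-34153432) ranked at 93.4% in adult HSC and 68.0% in adult LMPP and was in neither fetal list. The start of Cd74 (chr18:60803544-60803890) ranked at 55.4% and 25.5% in the adult lists and was in neither fetal list, while regions about 2.0 and 3.6 kb inside the gene were in all 4.

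H2-DMa had no peak within 1 kb of the start used by the table in any list. A region at its other RefSeq start (chr17:34122264-34122987) was in every list but that of fetal LMPP, at ranks of 20.2% to 32.8%. The strongest peak near it lay about 10 kb inside the annotated gene (chr17:34135261-34135938), at ranks of 87.4% to 95.9% in all 4 lists.

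Around Ciita peaks were listed in adult cells and in neither fetal list, from 10 kb upstream through the whole gene. In adult LMPP the start itself was listed (chr16:10487570-10488275), at the 91.4% rank. In adult HSC this start, the only Ciita start at hand, was not listed. The nearest peak lay 1595 bases downstream of it (chr16:10489500-10490204), at the 75.2% rank, and other starts of Ciita were not examined. A region 36885 to 36891 bases into the gene (chr16:10524738-10525212) was in both adult lists, at 55.6% in HSC and 75.4% in LMPP. The adult lists thus held different Ciita peaks near the start, and the RNA difference between these groups did not pass the test.

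**Figure D3:**
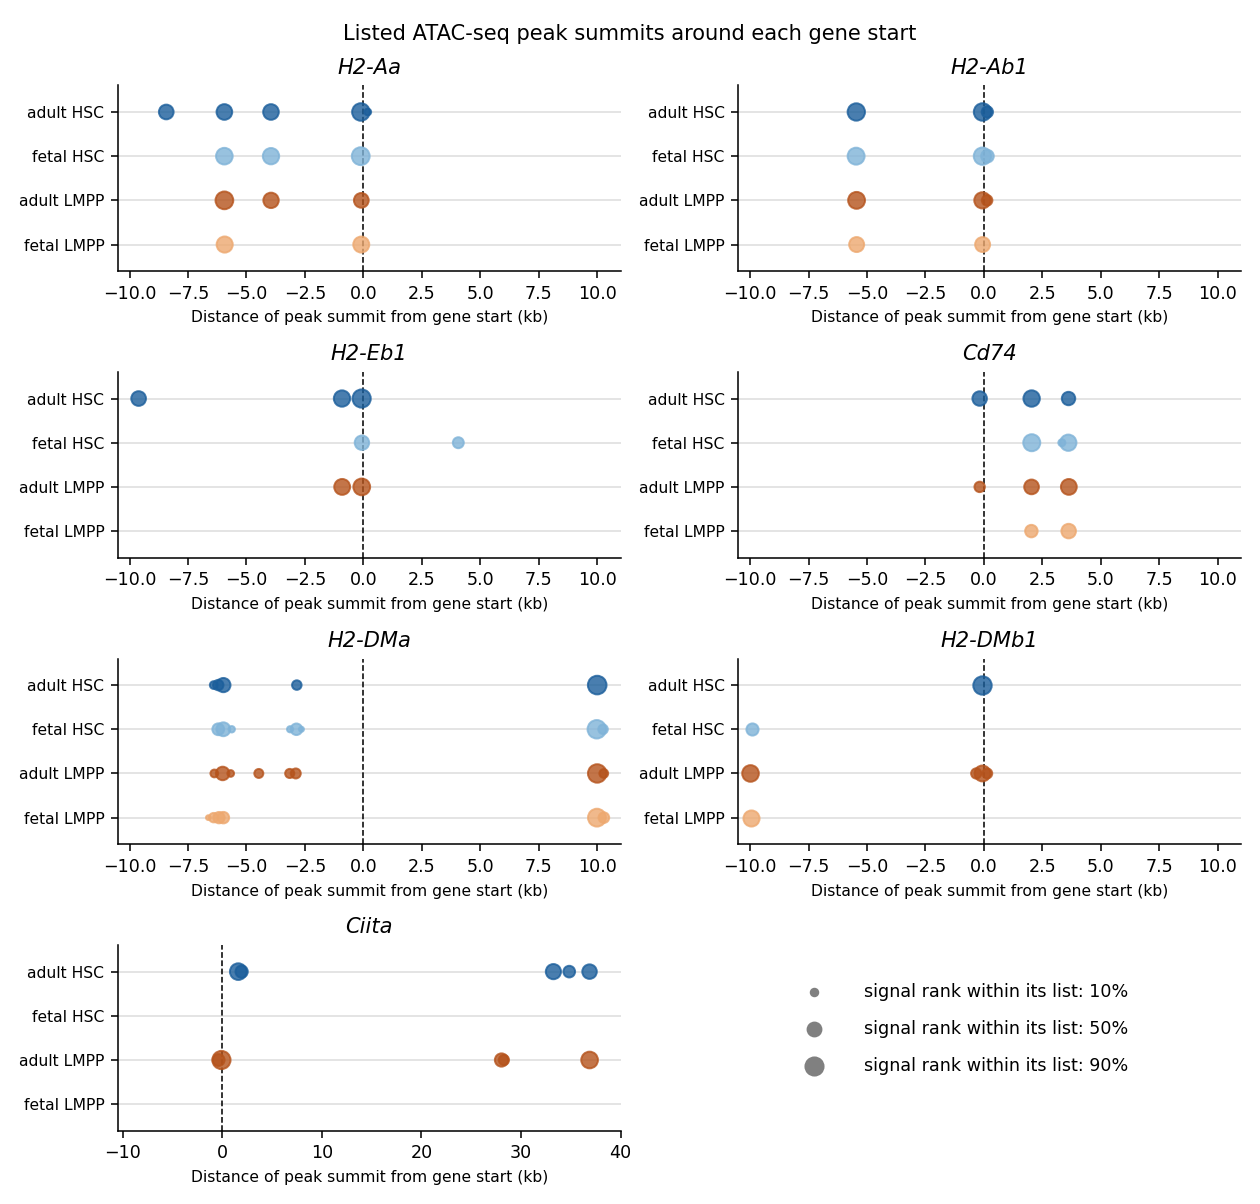
Position of listed ATAC-seq peak summits relative to the annotated start of each gene (dashed line), in kb along the direction of transcription, for the 4 groups. Point size is the rank of the summit's signal among all summit lines of its own list. H2-Aa and H2-Ab1 have a summit at the start in all 4 rows, and Ciita, drawn over a longer span, has none in either fetal row.

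Of the class II relatives, H2-Oa and H2-Ob encode the DO dimer, which restrains DM. Of 6 relatives listed, 5 were in the table and 3 passed the filter on low counts. H2-Ob was the most changed, at 13.8 ± 3.14 CPM in adult HSC, 3.27 ± 0.533 in fetal HSC, 164 ± 35 in adult LMPP and 12.1 ± 3.76 in fetal LMPP. Like H2-DMa, it was higher in adult LMPP than in adult HSC (log2 3.56 ± 0.30, adjusted p = 4.63e-05), and it was lower in fetal cells of both types (−2.07 ± 0.33, adjusted p = 0.00513 in HSC, and −3.76 ± 0.30, adjusted p = 4.31e-05 in LMPP). H2-Oa fell in fetal LMPP (−1.77 ± 0.36, adjusted p = 0.00878) and differed by −1.50 ± 0.42 in HSC (adjusted p = 0.0706), which passed in 3 of 20 alternatives, with DESeq2 at an adjusted p of 0.00852. H2-DMb2 fell in both (adjusted p = 0.00956 and 0.00928). In HSC the call of H2-Ob or H2-DMb2 was lost in 2 of 20 alternative fits each, and their adjusted p reached 0.0802 and 0.111.

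H2-Eb2 reached at most 0.557 CPM in any library, and H2-Ea-ps, an alpha chain pseudogene, had 0 counts in all 11 libraries, which allows at most 0.152 CPM in the shallowest.

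**Figure D4:**
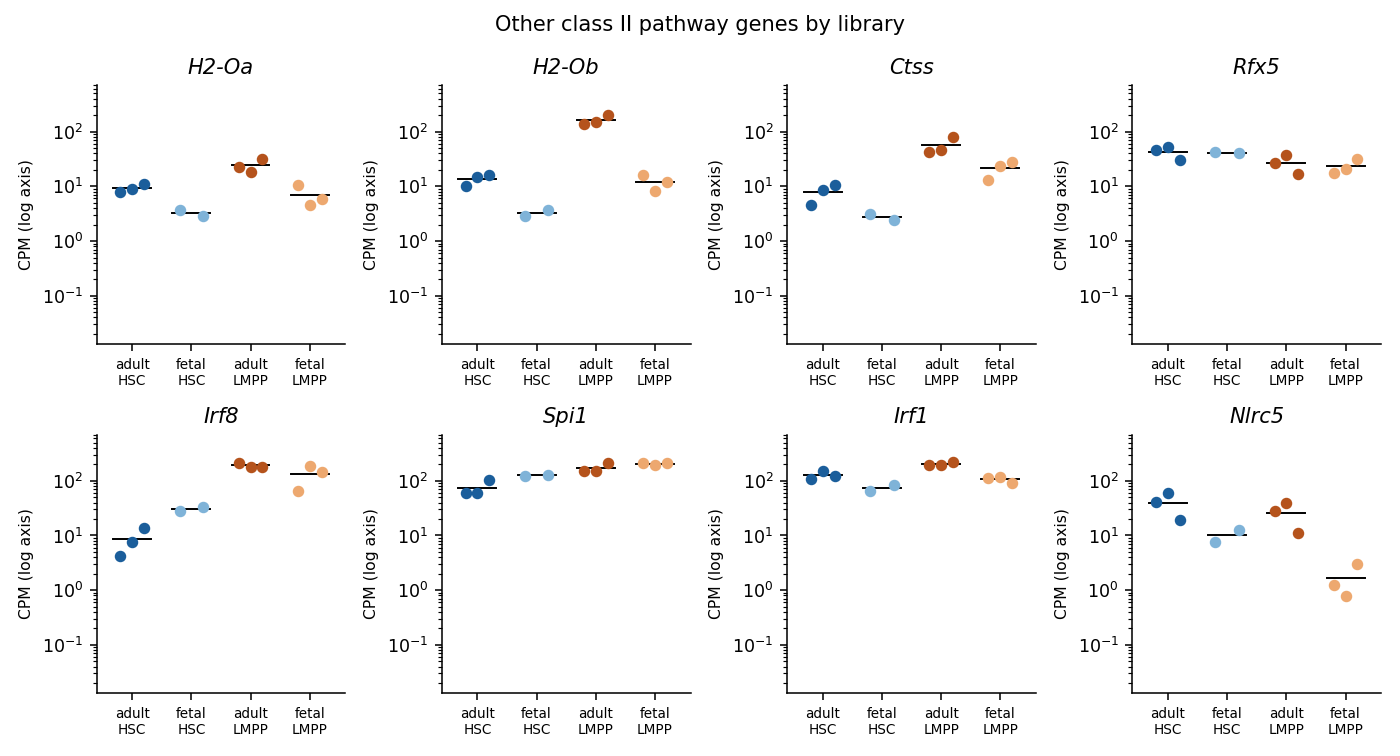
Level of 8 further genes of the class II pathway, its control and, with Nlrc5, control of class I. Values are CPM in each library on a log axis, with group means as black lines. H2-Ob stands out in adult LMPP at 164 CPM, Rfx5 is at like levels in fetal and adult cells, and Irf1 and Nlrc5 lie lower in each fetal LMPP library than in any adult LMPP library.

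No factor that binds the X and Y boxes was called in the edgeR fit described here or by DESeq2. Of Rfx5, Rfxap, Rfxank, Nfya, Nfyb, Nfyc, Creb1 and Atf1, 0 of 8 were called by edgeR or DESeq2 in HSC or LMPP between ages, and 0 had an unadjusted p under 0.05. Of all genes edgeR called 4.95% in HSC and 15.4% in LMPP, so with 8 genes nothing is read from the lack of calls. Between cell types edgeR called 17.1% of all genes in adult marrow and 18.1% in fetal liver, and either tool called 0 of the 8. At each age 1 of the 8 had an unadjusted p under 0.05. Other fits called up to 2 of them lower in fetal LMPP than in fetal HSC (in 4 of 20 alternatives) and 1 higher in adult LMPP than in adult HSC (in 2 of 20). Rfx5 was at 43 ± 11.3 CPM in adult HSC and 41.5 ± 2.14 in fetal HSC (log2 −0.05 ± 0.37), and at 27.1 ± 10.4 and 23.3 ± 7.24 CPM in adult and fetal LMPP (−0.22 ± 0.33). Rfxank was at 53.2 ± 1.92 and 53.1 ± 8.27 CPM in adult and fetal HSC. The median over the 8 genes was 0 in HSC and −0.02 in LMPP.

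In fetal LMPP 8.29% of all genes were called lower and 7.08% higher. Of 13 genes reported here, for interferon signalling, other control of Ciita and, with Nlrc5, control of class I, 3 were called lower and 1 higher there. The lower ones were Irf2 (lost in 7 of 20 alternatives), the interferon-induced factor Irf1 (202 ± 19 to 107 ± 13.7 CPM, adjusted p = 0.00615) and Nlrc5, the activator of class I genes (25.9 ± 14.1 to 1.68 ± 1.21 CPM, log2 −3.97 ± 0.66, adjusted p = 0.00328). The higher one was Ifngr2, a chain of the interferon gamma receptor (41 ± 5.78 to 79.8 ± 5.77 CPM, adjusted p = 0.00665). Without the 3 libraries that stood apart the counts were 4 lower and 2 higher.

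In HSC edgeR called 0 of these 13 lower, beside 2.89% of all genes, and 1 higher, beside 2.07%. Of the 13, 8 had an unadjusted p under 0.05 in either direction, and DESeq2 called 3 higher and 2 lower. Without the 3 libraries that stood apart edgeR called 4 higher and 2 lower. With all libraries the 1 higher call was Irf4, which had 0 counts in all adult HSC libraries, allowing at most 0.0976 CPM, and 1.21 ± 0.322 CPM in fetal HSC (adjusted p = 0.0364, a call lost in 9 of 20 alternatives). Nlrc5 was at 39.8 ± 20.1 CPM in adult and 10.1 ± 3.3 in fetal HSC, which missed the threshold (adjusted p = 0.151) except with DESeq2 (0.0271) and without the 3 libraries that stood apart (0.0109). Irf8 and Spi1, myeloid factors that act on Ciita in other cells, had higher means in fetal HSC that missed the threshold. Irf8 was at 8.52 ± 4.72 CPM in adult and 30.2 ± 3.47 in fetal HSC (log2 1.82 ± 0.47, adjusted p = 0.0527), and passed in 7 of 20 alternatives, with an adjusted p as low as 0.00052 without the 3 libraries. Spi1 was at 73.9 ± 24.2 and 126 ± 4.04 CPM (0.77 ± 0.24, adjusted p = 0.106), and passed in 3 of 20, at 0.000202 without the 3 libraries. In adult marrow Irf8 was higher in LMPP than in HSC (191 ± 17.6 CPM, log2 4.48 ± 0.48, adjusted p = 2e-04). Ciita was at 2.68 ± 1.67 CPM in adult LMPP and 4.82 ± 3.58 in adult HSC, a difference that was not called. A link between Irf8 and Ciita was not tested.

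Of 12 proteases and other processing genes tested, 1 was called in HSC and 3 in LMPP between ages, beside the 4.95% and 15.4% of all genes given above, and 4 between cell types at each age, beside 17.1% in adult marrow and 18.1% in fetal liver. In fetal HSC the call was Ctsd, which was lower (379 ± 29.1 to 228 ± 17.4 CPM, adjusted p = 0.018, lost in 4 of 20 alternatives). In fetal LMPP Ctsl and Lgmn were called higher (lost in 4 and 9 of 20 alternatives) and Ctss, which trims the invariant chain, lower (55.9 ± 20.4 to 21.4 ± 7.61 CPM, adjusted p = 0.0355, lost in 8 of 20 alternatives). Ctss was also higher in adult LMPP than in adult HSC (7.86 ± 3.01 CPM in HSC, log2 2.83 ± 0.41, adjusted p = 0.0011). Of 4 tested costimulatory genes, none was called by edgeR or DESeq2 between ages in HSC, with 0 at an unadjusted p under 0.05, and Icosl was lower in fetal LMPP (6.88 ± 4.04 to 0.823 ± 0.691 CPM, adjusted p = 0.00945). Cd86 was higher in fetal LMPP than in fetal HSC (log2 1.42 ± 0.40, adjusted p = 0.0333, lost in 5 of 20 alternatives). Cd274, which encodes the inhibitory ligand PD-L1, was called lower in LMPP than in HSC at both ages (adult −1.13 ± 0.35, adjusted p = 0.0485, fetal −1.21 ± 0.38, adjusted p = 0.0495), calls lost in 13 and 10 of 20 alternatives.

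Markers of the mature class II cells were measured beside these results. The summed level of 9 B cell markers was 37.1 to 81.6 CPM in adult HSC, 49.3 to 64.5 in fetal HSC, 62.5 to 91.8 in adult LMPP and 73.9 to 98.5 in fetal LMPP, and most of it was Cd79b. Ms4a1 was at 0 in all 11 libraries, Pax5 and Blk in all HSC libraries of both ages, and Ebf1 in all adult HSC libraries. The sum of 10 dendritic cell markers was 3.69 to 9.94 CPM in adult HSC and 8.22 to 10.7 in fetal HSC. In LMPP it was 25.9 to 37.7 CPM in adult and 65.4 to 104 in fetal libraries. Xcr1, Siglech and Klrd1 were at 0 in adult HSC, and Itgax, Clec9a, Siglech, Ccr9 and Klrd1 in fetal HSC. Macrophage and monocyte markers (10) summed to 16.3 to 43.7, 24.1 to 30.6, 70.3 to 86.7 and 86.8 to 221 CPM in the same order. Vsig4 was at 0 throughout. In LMPP that sum was mostly Csf1r (32.8 ± 12.3 CPM in adult, 114 ± 44.1 in fetal cells), with Cd68 and Ccr2. The dendritic sum of fetal LMPP was mostly Ccr9 (63.5 ± 10.5 CPM, against 13.2 ± 6.07 in adult LMPP). Clec10a went the other way, at 10.3 ± 1.38 CPM in adult and 0.357 ± 0.309 in fetal LMPP. None of the 3 sums was lower in all fetal than in all adult libraries of a cell type, and those of dendritic and, narrowly, of macrophage markers were higher in every fetal LMPP library than in every adult one. The macrophage genes themselves had a median log2 difference, fetal minus adult, of −1.20 in HSC and −1.39 in LMPP, the direction of class II. In LMPP 7 of the 9 tested had an unadjusted p under 0.05. Of the 9, edgeR called 2 lower, beside 8.29% of all genes, and DESeq2 called 5 lower and 2 higher. Their part in the class II difference was not tested. Single markers went both ways in LMPP, where Ebf1, Siglech and Ccr9 were called higher and Clec9a, Clec10a, Cd68 and C1qb lower in fetal cells. In HSC edgeR called 0 markers of these lists between ages, beside 4.95% of all genes, with 1, 2 and 1 at an unadjusted p under 0.05. DESeq2 called 1, a B cell marker that was higher in fetal cells.

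Within groups some of these sums moved with class II. Adult HSC 3, with the highest class II levels of its group, also had its highest sums for B cell (81.6 CPM), dendritic (9.94 CPM) and macrophage markers (43.7 CPM). Adult LMPP 3, with the highest class II levels of its group, had its highest B cell sum (91.8 CPM), its middle dendritic sum (30.6 CPM) and its lowest macrophage sum (70.3 CPM). Fetal LMPP 3 had the highest level of its group for each of the 7 genes except H2-DMb1, of which it had the lowest. Its marker sums were also the highest there, at 98.5, 104 and 221 CPM. Their part in the spread within groups was not tested. The sum of 7 T and NK cell markers, of which 3 passed the filter, was 54.9 to 119 CPM in adult and 11.3 to 11.7 CPM in fetal HSC and 260 to 365 CPM in adult and 48.3 to 61.8 CPM in fetal LMPP. Nkg7, a granule protein gene, made up most of it in the adult libraries and was the only one of the list called between ages, lower in fetal cells of both types. Cd4 was at 0.756 ± 0.656 CPM in adult and 4.13 ± 1.5 in fetal HSC and at 2.33 ± 0.889 and 10.2 ± 0.54 CPM in adult and fetal LMPP, and Cd3e was at 0 in all 11. The median of the 3 was 0 in HSC and −2.78 in LMPP. The part of such cells in the class II difference was not tested.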

How the data were processed

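RNA was measured in 11 libraries and open chromatin in 8. Per the file headers, the authors made the deposited expected counts with HOMER on mm10, as raw reads in exons per gene with no normalization; values move in steps of 0.5 (22.5% are not whole) and were rounded. Per the labels' protocols the libraries were made with SMART-Seq v4 and Nextera XT, which keep neither strand nor molecular identifiers, so overlapping and near-identical genes can share reads and floors cover counting error only. The submitters' processing notes list, without roles, Bowtie2 2.3.5, SAMtools 1.9, STAR, Trim Galore, Picard, MACS2, RSEM, DESeq2 and HOMER. Each deposited peak list covers the 2 libraries of a group and gives the authors' signal value (a fold enrichment ratio), −log10 q-value and score per peak; the signal was used for ranks, the −log10 q in a stricter alternative (5 or more), and the score in no result. Pooling of replicate reads before the peak call is not stated in any source used here. Lines that describe several summits of a peak were merged for the counts of peaks, and ranks were taken over all lines before merging.

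Counts were fitted with edgeR 4.0.16 in R 4.3.3 (filterByExpr, 14720 of 25124 genes kept; TMM; 1 mean per group, all 11 libraries in 1 fit; quasi-likelihood test; Benjamini-Hochberg over all genes tested, called at an adjusted p under 0.05). Every adjusted p is from edgeR unless DESeq2 1.42.0 is named. The common biological coefficient of variation was 0.372. The scripts were tested on simulated counts. Levels are given as mean ± SD of libraries and log2 differences with their SE. The correlation used for genes most alike took log2 CPM with a prior count of 2. Genes named were the 7 members, the 8 genes most like their mean (predicted and clone-named genes left out), the genes with the lowest p of each pathway list and fixed genes of those lists. A gene of the lists is not reported here and is in no count of its list. The members, lists and rules were chosen with earlier results of these data known. Alternatives were RLE and upper quartile scaling, DESeq2, no filter, a stricter filter (1 CPM in 3 libraries), only the groups compared, unrounded counts, a replicate block, leaving out each library and leaving out the 3 libraries that stood apart. Peaks were also counted within 2.5 and 10 kb and at any RefSeq start. No gene column belonged to other samples.

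The labels number the replicates alike across groups. Deviations from group means of same-numbered adult HSC and adult LMPP libraries correlated at 0.153, 0.306 and 0.472. This met the threshold used to treat those libraries as pairs (over 0.1 in each of 3 pairs). Differently numbered adult libraries 1 and 2 also exceeded 0.1, at 0.128 and 0.216. A library 3 set against another number gave −0.372 to −0.194. Library 3 stood apart in both groups, so these values cannot show that the numbers mark pairs. Same-numbered libraries of the other comparisons correlated at −0.167 to 0.097 and share only a number.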

Additional observations from a re-analysis of the deposited data

How the results depend on the processing

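The calls of 6 genes lower in fetal HSC and 6 in fetal LMPP came to 5 to 7 and 6 to 7 under all 20 alternatives. With a replicate block the counts of called genes were 6, 6, 1, 3 and 0 in the 5 comparisons, unchanged. The count for LMPP against HSC in adult marrow (1) became 2 without the 3 libraries that stood apart and ran from 1 to 2 when 1 library was left out. In fetal liver (3) it ran from 1 to 4, with 1 left without either fetal HSC library, where the lone library is assumed to vary like the other groups. The count for the interaction (0) was 1 with DESeq2 and 1 without the 3 libraries. Genes with a peak anywhere within 10 kb of the start numbered 6 in fetal HSC and 5 in fetal LMPP. Signs turned only for differences that were not called, and the causes were not tested. H2-Eb1 in fetal LMPP against HSC (0.25) was −0.50 with the replicate block and −2.43 to 0.94 when 1 library was left out, and in the interaction (0.37) −0.36 and −2.31 to 1.05. Without the 3 libraries, Ciita in fetal LMPP against HSC was 0.37 (−2.57 to 0.37 leaving out 1 library) and H2-DMb1 in the interaction −0.08 (−0.16 to 0.50). Leaving out 1 library also gave −0.48 to 0.06 for H2-Eb1 in adult LMPP against HSC, −0.51 to 0.15 for H2-DMb1 in fetal LMPP against HSC, −1.73 to 1.22 for the Ciita interaction, and −0.25 to 0.12 and −0.50 to 0.088 for Rfx5 in HSC and LMPP between ages. Other scalings moved the median of all genes by at most 0.064 in size. Over all genes, 304 higher and 425 lower calls in fetal HSC became 1096 and 1241 without the 3 libraries and 655 and 889 with DESeq2, and 1042 and 1221 in fetal LMPP became 2195 and 2215 without the 3. Lowly expressed values (H2-Aa and H2-Eb1 in fetal cells, Ciita everywhere) are limited by depth.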
